A study of Homo sapiens with 9 samples.

Results

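Neurons are told apart by the transmitter they release, and the genes described here make or move those transmitters. They are the 8 genes GAD1, GAD2, SLC32A1, SLC6A5, SLC6A9, SLC17A6, SLC17A7 and SLC17A8, picked by name as the genes that make or move GABA, glycine and glutamate, out of 31589 genes measured in spinal cord organoids (SCOs). SCOs are small tissues grown from human induced pluripotent stem cells that follow the early development of the neural tube. The cells are of the WTC line, whose genotype the labels give as WT, while the study's methods describe WTC clones edited to carry a SOX10 reporter. The study's text has 3 clones, with SCOs of each clone pooled for a library. In the labels a prefix recurs in the 3 conditions, once per condition and with the same replicate number, but its relation to the clones is not given. Replicates may thus be clones of 1 line, and the p-values below measure the spread between these libraries. Messenger RNA of whole organoids was sequenced in 9 libraries, 3 per condition. All SCOs were kept in the growth factor FGF, and the labels give 96 h for each treatment, while the study's text gives exposure times and VPA doses that differ between its passages. Vehicle SCOs received FGF alone, VPA SCOs also valproic acid (an anti-seizure drug that inhibits histone deacetylases), and VPA+Rapamycin SCOs both valproic acid and Rapamycin, an inhibitor of the kinase mTOR. Rapamycin alone was not among the conditions, so its values are those in the presence of VPA.

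In the spinal cord, inhibitory interneurons release GABA, glycine or both, and excitatory interneurons release glutamate. GAD1 and GAD2 encode the enzymes that make GABA from glutamate. SLC32A1 encodes the transporter (VGAT) that loads both GABA and glycine into synaptic vesicles, SLC6A5 the glycine transporter of glycinergic terminals (GLYT2), and SLC6A9 the glycine transporter (GLYT1) found mainly on glia. SLC17A6, SLC17A7 and SLC17A8 encode the vesicular glutamate transporters VGLUT2, VGLUT1 and VGLUT3, of which VGLUT2 is the one usual in spinal interneurons.

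The libraries held 15290436 to 17417478 counts on genes, and 3 counts, taken as the smallest level told from 0, were worth 0.172 to 0.196 CPM (the count after every library is brought to the same total). The spread between libraries of a condition exceeded sampling noise (mean chi-square per gene 4.75 to 39.1, about 1 from noise alone), and the widest pair was vehicle replicates 1 and 3. All 15 pan-neuronal markers and all 14 markers of neural progenitors looked at had counts, as a neural tissue should, and the 11 spinal HOX genes, which mark trunk identity, summed to 267 to 470 CPM in vehicle, 176 to 203 CPM in VPA and 229 to 273 CPM with Rapamycin. The summed pan-neuronal markers were at 1876, 2455 and 3308 CPM in vehicle replicates 1, 2 and 3, so vehicle replicate 3 held the most neuronal RNA. That library also stood apart in factors of dorsal excitatory neurons. ATOH1 had 0, 0 and 126 counts in vehicle replicates 1, 2 and 3, LHX9 had 0, 0 and 86, BARHL1 had 0, 0 and 33, and TLX3 had 2, 3 and 58. VPA libraries had 1680 to 1813 CPM and VPA+Rapamycin libraries 1811 to 2002 CPM of the same markers. In RNA of whole organoids, fewer neurons of a type and less RNA per neuron cannot be told apart.

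The start regions of the genes are shown so that the members that fell with VPA and the 1 that rose can be read side by side. Each line gives 30 bases from the 250 bases before the RefSeq start of the gene (GRCh38.p14, on the strand of the gene), with the matched motif in capitals. Some of these bases lie inside the longer gene models of the deposited tables.

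SLC6A5: aatcagacCACATGAGTCAcgccaaacacg
SLC17A6: tacattgtttttCAGCTGaccgacttccag
GAD1: gaggcggtcaggCACCTGcagaggagcccc
GAD2: cttccttcccctCAGCTGgagccagacctc
SLC32A1: ccgccgccgccgCCGCCCtccgcagcccag
SLC17A7: gcctcccgcgccCCGCCCccggcgctgagt

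The SLC6A5 window (chr11:20599383-20599412) holds an E-box, spelled CANNTG, that overlaps an AP-1 site, spelled TGANTCA. The windows of SLC17A6 (chr11:22338172-22338201), GAD1 (chr2:170816733-170816762) and GAD2 (chr10:26216153-26216182) hold an E-box alone. Those of SLC32A1 (chr20:38724433-38724462) and SLC17A7 (chr19:49441554-49441583) hold a GC box, spelled GGGCGG and read here on the other strand. Both strands were searched for each motif. SLC6A5 was the 1 member of 8 with an AP-1 site, which 6.57% of 35116 RefSeq promoters of that length have. An E-box stood in 61.8% of those promoters and a GC box in 42.6%. In base composition the members fell apart, since the G and C content was 47.2% at SLC17A6 and 50.4% at SLC6A5 against 73.6% at SLC32A1, 70.0% at SLC17A7 and a median of 58.0% over all promoters. These matches describe letters and not binding.

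In SCOs without VPA, the GABA genes GAD1 and SLC32A1 stood highest and VGLUT1 and VGLUT3 lowest. To compare genes with each other, levels were divided by gene length, as CPM per kilobase. In vehicle, GAD1 stood highest at 6.81 ± 0.74 CPM per kilobase, followed by SLC32A1 at 6.42 ± 0.65, SLC6A9 at 5.09 ± 0.73, SLC6A5 at 4.15 ± 0.50, SLC17A6 at 3.56 ± 2.05 and GAD2 at 2.81 ± 0.34 (SD, n = 3 each). Neighbours in that order overlapped in their libraries down to GAD2. SLC17A7 was lower, at 0.201 ± 0.138 CPM per kilobase, and its libraries lay apart from those of GAD2. SLC17A8 was at 0.041 ± 0.059 CPM per kilobase and overlapped SLC17A7.

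VPA lowered the RNA of the GABA genes, of SLC6A5 and of VGLUT2, and raised that of VGLUT1. Of the 7 members that passed the filter on low counts, 5 fell (GAD1, GAD2, SLC32A1, SLC6A5 and SLC17A6), 1 rose (SLC17A7) and 1 (SLC6A9) did not pass an adjusted p of 0.05 by edgeR's quasi-likelihood test. Over all 17360 genes tested the share called was 32.1%, with 15.7% lower and 16.4% higher. The median log2 fold change of the 7 members was -1.64, against -0.00298 over all genes tested. Libraries of both conditions did not overlap for 7 of the 8 members (6 lower and 1 higher), compared with 47.5% of all genes tested (22.6% lower and 24.9% higher). With 3 libraries against 3, a two-sided exact permutation test of a single gene cannot give a p under 0.1.

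GAD1 (ENSG00000128683, plus strand of chromosome 2, 170813213 to 170861151 in GRCh38) had 962, 938 and 804 counts in vehicle and 322, 266 and 328 in VPA. Every VPA library was far below every vehicle library. The level went from 56.1 ± 6.1 to 18.1 ± 1.5 CPM (SD, n = 3 each), or 32.2% of vehicle, a log2 fold change of -1.64 (standard error, SE, 0.13, edgeR adjusted p = 1.649e-05). The other GABA-making enzyme, GAD2 (ENSG00000136750, plus strand of chromosome 10, 26216307 to 26304558), had 293, 301 and 252 counts in vehicle and 89, 70 and 117 in VPA. Its groups were as clearly apart as those of GAD1. It fell by 1.70 on the log2 scale (SE 0.20, edgeR adjusted p = 0.000174), to 30.9% of vehicle.

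SLC32A1 (ENSG00000101438, plus strand of chromosome 20, 38724462 to 38729372) had 284, 274 and 238 counts in vehicle and 149, 63 and 135 in VPA. VPA replicate 2 was the lowest, and the highest VPA library still lay under the lowest vehicle library. This transporter, which inhibitory neurons of both kinds need, fell to 41.3% of vehicle, a log2 fold change of -1.28 (SE 0.26, edgeR adjusted p = 0.00363).

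The glycinergic gene fell further. SLC6A5 (ENSG00000165970, plus strand of chromosome 11, 20599400 to 20659285) had 442, 445 and 537 counts in vehicle and 65, 58 and 83 in VPA, so the VPA libraries were close together at a small part of the vehicle level. The level went from 29.6 ± 3.5 to 4.06 ± 0.59 CPM (SD, n = 3 each), or 13.7% of vehicle. Its log2 fold change was -2.87 (SE 0.18, edgeR adjusted p = 4.172e-06), and by p it ranked 14 among all genes tested and 2 among those with a lower estimate.

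SLC6A9 (ENSG00000196517, minus strand of chromosome 1, 43991500 to 44031467), the glycine transporter found mainly on glia, had 508, 399 and 364 counts in vehicle and 332, 347 and 369 in VPA. By counts VPA replicate 3 was above vehicle replicate 3, and on the scaled levels the groups did not overlap. Its estimate was -0.35 (SE 0.14, edgeR adjusted p = 0.0777), and without vehicle replicate 3 it was -0.45 with an adjusted p of 0.0153. CCDC24, a gene on the opposite strand that overlaps SLC6A9, had a mean count equal to 28.6% of that of SLC6A9. Whether reads were assigned by strand is not stated, so the values of SLC6A9 are uncertain. Of the other members, GAD1 and SLC17A6 overlap only antisense genes with mean counts of 0.923% and 2.17% of their own, and the remaining 5 overlap none.

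SLC17A6 (ENSG00000091664, plus strand of chromosome 11, 22338097 to 22379503), the usual vesicular glutamate transporter of the spinal cord, had 174, 199 and 468 counts in vehicle and 10, 7 and 9 in VPA. Vehicle replicate 3, the library richest in neuronal RNA, was far above the other two, and the VPA libraries held few counts. The level went from 17.4 ± 10.1 to 0.513 ± 0.083 CPM (SD, n = 3 each), or 2.94% of vehicle. The log2 fold change of -5.08 (SE 0.45, edgeR adjusted p = 3.030e-05) was the widest among the members, and it was -4.49 without vehicle replicate 3. Per 1000 CPM of summed pan-neuronal markers, vehicle replicate 3 was still the highest at 8.75, against 5.34 and 5.49 in the other vehicle libraries. It was also the vehicle library with counts of ATOH1, LHX9 and BARHL1, whose part in its SLC17A6 level was not tested.

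SLC17A7 (ENSG00000104888, minus strand of chromosome 19, 49429401 to 49442360), the vesicular glutamate transporter best known from the cerebral cortex and hippocampus, moved the other way. It had 18, 7 and 34 counts in vehicle and 154, 132 and 142 in VPA, so every VPA library was well above every vehicle library. The level went from 1.21 ± 0.83 to 8.47 ± 0.63 CPM (SD, n = 3 each), which is 2.78 on the log2 scale (SE 0.40, edgeR adjusted p = 0.000494), and 3.44 without vehicle replicate 3. SLC17A8 (ENSG00000179520, plus strand of chromosome 12, 100357079 to 100422059) had 0, 7 and 1 counts in vehicle, 2, 0 and 4 in VPA and 4, 1 and 2 in VPA+Rapamycin. It did not pass the filter, and with most libraries at or close to 3 counts a difference was not detectable at this depth.

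**Figure D1:**
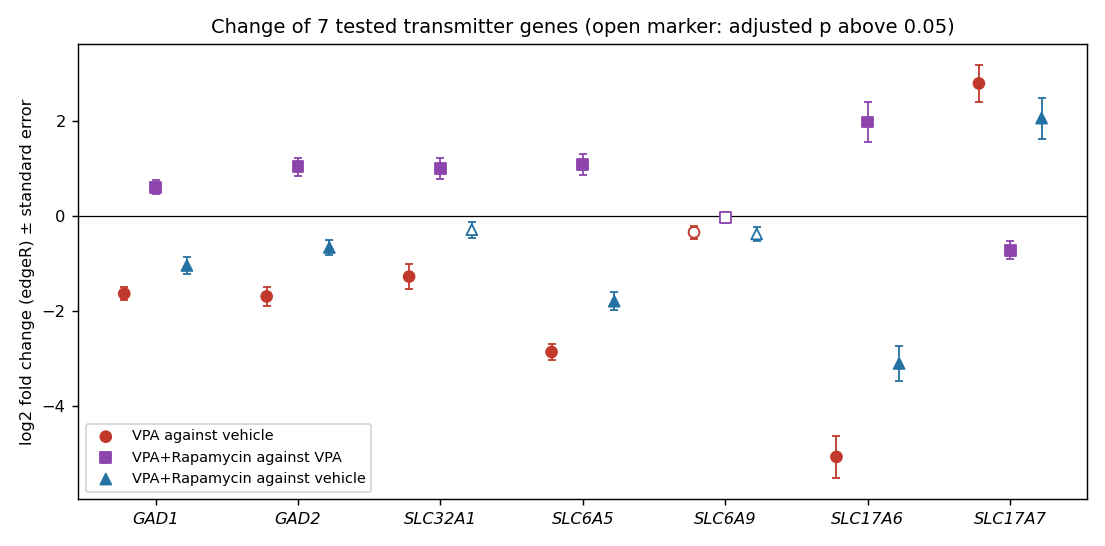
Log2 fold change by edgeR (y axis) of the 7 tested transmitter genes (x axis) in VPA against vehicle, VPA+Rapamycin against VPA and VPA+Rapamycin against vehicle, with the SE as bars and 3 libraries per condition. Filled markers had an adjusted p of at most 0.05. VPA and vehicle libraries each serve in 2 of the 3 comparisons. SLC17A6 has the widest changes, at -5.08, 1.97 and -3.11, and SLC6A9 is open in all 3.

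With Rapamycin added, the GABA genes, SLC6A5 and the VGLUT2 gene stood higher than in VPA and VGLUT1 stood lower, while SLC6A9 did not pass. Compared with VPA alone, 5 of the 7 tested members rose (GAD1, GAD2, SLC32A1, SLC6A5 and SLC17A6) and SLC17A7 fell, while 6.74% of all 17317 genes tested were called in this comparison (3.01% higher and 3.73% lower). Libraries did not overlap for 6 of the 8 members (5 higher and 1 lower), compared with 25.5% of all genes tested (12.3% higher and 13.2% lower). Since VPA libraries serve in both comparisons, a high or low VPA library moves both in opposite directions. The calls rested on few libraries in part, since 2 of the 6 passed when VPA replicate 2 was left out. They also depended on the fit and the threshold. Of the 6, 2 passed when all 9 libraries were fitted together and 3 when a change of at least 1 on the log2 scale was required. GAD2 and SLC6A5 passed under each of the 13 alternatives that changed the fit, the filter or the libraries.

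GAD2 had 173, 201 and 179 counts with Rapamycin, all above the 70 to 117 counts of the VPA libraries. It rose by 1.03 on the log2 scale (SE 0.19, edgeR adjusted p = 0.00289). GAD1 had 385, 613 and 367 counts, of which VPA+Rapamycin replicate 2 was well above the other two, and the lowest was above the highest VPA library. It rose by less than GAD2, by 0.59 (SE 0.15, edgeR adjusted p = 0.0227). Without VPA+Rapamycin replicate 2 the estimate was 0.35 with an adjusted p of 0.116, and leaving out VPA replicate 1, 2 or 3 gave an adjusted p of 0.0501, 0.111 or 0.0575.

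SLC32A1 had 226, 267 and 184 counts with Rapamycin, again all above the VPA libraries. It rose by 0.99 (SE 0.23, edgeR adjusted p = 0.0128). The estimate was 0.71 without VPA replicate 2, its lowest library, with an adjusted p of 0.0548. SLC6A5 had 167, 161 and 99 counts, with VPA+Rapamycin replicate 3 closest to the VPA libraries but still above them. Its rise was 1.07 (SE 0.22, edgeR adjusted p = 0.00663). SLC6A9 had 317, 331 and 358 counts, against 332 to 369 in the VPA libraries. On the scaled levels VPA+Rapamycin replicates 1 and 2, at 18.9 and 19.3 CPM, lay below the VPA range of 19.8 to 21.4 CPM. VPA+Rapamycin replicate 3, at 22.6 CPM, lay above that range. The estimate for SLC6A9 was -0.03 (SE 0.12, edgeR adjusted p = 0.908).

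SLC17A6 had 31, 35 and 35 counts, a narrow range that lay above all VPA libraries. It rose by 1.97 (SE 0.42, edgeR adjusted p = 0.00865), and the adjusted p was 0.0548 without VPA replicate 2. SLC17A7 had 72, 97 and 85 counts, all below the VPA libraries. The decrease of 0.73 (log2 fold change -0.73, SE 0.19, edgeR adjusted p = 0.0288) was the least firm of the 6. Its adjusted p was 0.108, 0.0750 and 0.0552 without VPA replicates 1, 2 and 3, and 0.0805 and 0.0674 without VPA+Rapamycin replicates 1 and 3.

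The levels with Rapamycin did not all reach those of vehicle. Compared with vehicle, 4 of the 7 tested members were lower in VPA+Rapamycin (GAD1, GAD2, SLC6A5 and SLC17A6), SLC17A7 was higher, and SLC32A1 and SLC6A9 did not pass. Of all 17383 genes tested, 19.0% were called, 9.22% lower and 9.81% higher. Libraries did not overlap for 5 of the 8 members (4 lower and 1 higher), compared with 38.5% of all genes tested (18.1% lower and 20.3% higher). SLC32A1 came nearest to vehicle, at 81.9% of its level (13.5 ± 2.0 against 16.5 ± 1.7 CPM, SD, n = 3 each), with a log2 fold change of -0.30 (SE 0.17, edgeR adjusted p = 0.239). This does not show that the level was equal to that of vehicle.

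GAD2 stood at 63.1% of vehicle, a log2 fold change of -0.67 (SE 0.16, edgeR adjusted p = 0.0158). That call was lost without vehicle replicate 2 (adjusted p = 0.0753) and without VPA+Rapamycin replicate 1, 2 or 3 (adjusted p = 0.0761, 0.0519 and 0.0594). GAD1 stood at 48.5% of vehicle, with -1.05 (SE 0.18, edgeR adjusted p = 0.00338). The gap was wider for SLC6A5, at 28.8% of vehicle and -1.80 (SE 0.19, edgeR adjusted p = 0.000305), and widest for SLC17A6, at 11.6% and -3.11 (SE 0.38, edgeR adjusted p = 0.000633). SLC17A7 had a level of 5.10 ± 0.72 CPM against 1.21 ± 0.83 in vehicle (SD, n = 3 each), with 2.05 (SE 0.43, edgeR adjusted p = 0.00938). SLC6A9 had an estimate of -0.39 (SE 0.15, edgeR adjusted p = 0.0970), which passed without vehicle replicate 3 (-0.48, adjusted p = 0.0273) and with all 9 libraries in a single fit (adjusted p = 0.0475).

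The order of levels per kilobase was different in each condition. In VPA, SLC6A9 was highest at 4.02 ± 0.16 CPM per kilobase and lay apart from SLC32A1 at 2.65 ± 1.01, which overlapped GAD1 at 2.20 ± 0.18 (SD, n = 3 each). SLC17A7 at 1.41 ± 0.11 came next, above GAD2 at 0.869 ± 0.187, SLC6A5 at 0.571 ± 0.083, SLC17A6 at 0.105 ± 0.017 and SLC17A8 at 0.027 ± 0.027 (SD, n = 3 each), each apart from its neighbours. With Rapamycin, SLC32A1 at 5.26 ± 0.77 CPM per kilobase was highest, above SLC6A9 at 3.92 ± 0.39, GAD1 at 3.31 ± 0.89, GAD2 at 1.78 ± 0.12, SLC6A5 at 1.20 ± 0.28, SLC17A7 at 0.848 ± 0.120, SLC17A6 at 0.414 ± 0.037 and SLC17A8 at 0.033 ± 0.021 (SD, n = 3 each). SLC6A9 and GAD1 overlapped there, and so did SLC6A5 and SLC17A7.

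The glutamate transporters changed places. By per-kilobase level, SLC17A7 made up 2.68% to 7.77% of the 3 vesicular glutamate transporters in vehicle libraries, 89.5% to 93.9% in VPA libraries and 62.2% to 68.6% with Rapamycin. The ranges of the 3 conditions were apart. The sum of the 3 transporters was 2.28, 2.86 and 6.27 CPM per kilobase in vehicle replicates 1, 2 and 3, and 1.44 to 1.68 in VPA and 1.14 to 1.37 with Rapamycin, so the rise of SLC17A7 was smaller than the fall of SLC17A6 in CPM per kilobase.

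Set against SLC17A6 alone, the vesicular transporter of inhibitory neurons gained. The ratio of SLC32A1 to SLC17A6 per kilobase was 0.968 to 3.11 in vehicle, 17.1 to 28.5 in VPA and 10.01 to 14.5 with Rapamycin. Set against all 3 glutamate transporters, it showed no such separation between vehicle and VPA, since SLC32A1 made up 47.7% to 74.1% of the 4 vesicular transporters in vehicle and 51.1% to 67.3% in VPA, and 76.7% to 82.0% with Rapamycin. GAD1 and GAD2 moved in parallel under VPA, with a GAD1 to GAD2 ratio of 2.36 to 2.49 in vehicle, 2.13 to 2.88 in VPA and 1.55 to 2.31 with Rapamycin. The last range lay below that of vehicle. The ratio of SLC6A5 to SLC6A9 was 0.631 to 1.07 in vehicle, 0.121 to 0.163 in VPA and 0.201 to 0.382 with Rapamycin. These ratios were not tested, and those with SLC6A9 carry its uncertainty of strand.

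Part of the pan-neuronal markers were called as well. Of the 15, 9 fell, 1 (MAPT) rose and 5 did not pass in VPA (median log2 fold change -0.59), against 15.7% of all genes tested lower and 16.4% higher. With Rapamycin compared with VPA, 5 rose, 1 (GAP43, -0.60, edgeR adjusted p = 0.00219) fell and 9 did not pass (median 0.20), against 3.01% higher and 3.73% lower. The summed levels given above overlapped between VPA and VPA+Rapamycin libraries. The part of neuronal RNA in the change of the transmitter genes was not tested. In VPA against vehicle, MYT1L, a neuronal transcription factor, was at -2.40 (SE 0.32, edgeR adjusted p = 0.000332). The neuronal endosome gene NSG2 was at -1.52 (SE 0.20, edgeR adjusted p = 0.000311) in that comparison. The RNA-binding protein gene ELAVL4 was at -1.20 there (SE 0.17, edgeR adjusted p = 0.000508). Per 1000 CPM of summed pan-neuronal markers, GAD1 was at 15.03 to 30.3 in vehicle and 9.77 to 10.8 in VPA, GAD2 at 4.71 to 9.24 and 2.57 to 3.84, SLC6A5 at 10.04 to 13.9 and 2.13 to 2.72, and SLC17A6 at 5.34 to 8.75 and 0.257 to 0.329. These 4 were lower in every VPA library on that scale too. SLC32A1 overlapped, at 4.45 to 8.96 in vehicle and 2.31 to 4.91 in VPA, through vehicle replicate 3 alone, which was the lowest vehicle library on this scale. SLC17A7 was higher, at 0.188 to 0.636 in vehicle and 4.66 to 5.07 in VPA. With Rapamycin the GABA genes overlapped vehicle on this scale, with GAD1 at 11.6 to 19.7, GAD2 at 5.63 to 6.46 and SLC32A1 at 5.79 to 8.58. Their means were 62.1%, 80.5% and 104.7% of vehicle, compared with 48.5%, 63.1% and 81.9% in CPM. For GAD1 and GAD2 the overlap rested on vehicle replicate 3, whose pan-neuronal sum was the highest. The other vehicle libraries stood at 25.2 and 30.3 for GAD1 and at 8.08 and 9.24 for GAD2, above every library with Rapamycin. SLC6A5 (38.2% of vehicle) and SLC17A6 (16.5%) were lower than every vehicle library on this scale, and SLC17A7 (585% of vehicle) was higher.

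Some markers of mesenchyme, a non-neural tissue, rose with VPA. The 13 mesenchymal markers summed to 189 to 367 CPM in vehicle, 658 to 811 in VPA and 324 to 444 with Rapamycin, and none of the 13 was at 0 in all libraries. Of the 12 tested, 4 rose in VPA (COL1A1, COL1A2, PRRX2 and THY1), 0 fell and 8 did not pass by edgeR, against 16.4% of all genes tested higher. The sums were carried mainly by the collagen genes COL1A1 and COL1A2, with means of 270.2 and 319 CPM in VPA. POSTN, COL3A1 and PRRX1 had estimates of -1.15, -0.49 and -0.43. With Rapamycin compared with VPA, 7 fell, against 3.73% of all genes tested lower. Their part in the change of the transmitter genes was not tested.

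Among 14 tested genes of GABA and glycine synthesis, breakdown and uptake, 5 rose, 1 fell and 8 did not pass in VPA (median log2 fold change 0.34), against 16.4% of all genes tested higher and 15.7% lower. The widest was SLC7A10, a neutral amino acid transporter that carries D-serine and glycine, which had 12, 3 and 8 counts in vehicle and 330, 349 and 358 in VPA. It was hardly detected without VPA and rose by 5.40 (SE 0.30, edgeR adjusted p = 2.049e-06). SHMT2, a mitochondrial enzyme that makes glycine from serine, rose by 0.85 (SE 0.15, adjusted p = 0.00189), and the creatine transporter SLC6A8 was at -0.73 (SE 0.10, edgeR adjusted p = 0.000512). With Rapamycin compared with VPA, 3 of 13 tested fell, among them SHMT2 (-0.64, adjusted p = 0.000407) and SLC7A10 (-0.59, adjusted p = 0.00965 by edgeR). Compared with vehicle, 1 of 14 was higher and 1 lower. Over all genes tested, 3.73% were lower with Rapamycin than in VPA, and 9.81% were higher and 9.22% lower than in vehicle.

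Among 17 tested genes of glutamate and glutamine metabolism and uptake, 6 rose, 2 fell and 9 did not pass in VPA (median log2 fold change 0.37), against the same shares of all genes. SLC1A1, a neuronal glutamate uptake transporter, had 60, 38 and 41 counts in vehicle and 293, 254 and 297 in VPA, a clear separation, and rose by 2.53 (SE 0.20, edgeR adjusted p = 1.694e-05). The 2 that fell were the glutamine transporters SLC38A2, at -0.87 (adjusted p = 0.00399), and SLC38A1, at -0.30 (adjusted p = 0.0308). The aminotransferase GOT1 rose by 0.54 (adjusted p = 0.00514 by edgeR). With Rapamycin compared with VPA, 1 of 16 rose (SLC1A3, the glial glutamate transporter, 0.29, adjusted p = 0.0236) and 1 fell (SLC7A11, the cystine and glutamate exchanger, -1.34, adjusted p = 0.00999 by edgeR). Of all genes tested, 3.01% rose and 3.73% fell in that comparison. With Rapamycin, SLC1A1 was also higher than in vehicle, by 2.29 on the log2 scale (adjusted p = 0.000199 by edgeR).

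Part of the cholinergic and monoaminergic genes rose. Of 13 tested, 6 rose, 0 fell and 7 did not pass in VPA, against 16.4% of all genes tested higher. Estimates were above 0 for 8 and below 0 for 5. Among those below 0 were CHAT at -0.43 (adjusted p = 0.343) and SLC5A7 at -1.15 (edgeR adjusted p = 0.0522). With Rapamycin compared with VPA, 0 of 13 passed by edgeR and 0 by DESeq2, with 3 at an unadjusted p under 0.05. SLC18A3, which loads acetylcholine into vesicles, had 142, 164 and 260 counts in vehicle and 383, 436 and 505 in VPA, without overlap. It rose by 1.14 (SE 0.22, edgeR adjusted p = 0.00270). GCH1, which makes the cofactor of monoamine synthesis, rose by 1.79 (SE 0.23, adjusted p = 0.000271), and the dopamine transporter SLC6A3 by 1.73 (SE 0.28, edgeR adjusted p = 0.00109). Of the 23 genes of the vesicle machinery that all transmitters share, 4 rose and 7 fell in VPA (median -0.14), so as a list it moved less than the transmitter genes. Over all genes tested 16.4% rose, a share close to that of this list, and 15.7% fell. CPLX2, a regulator of vesicle fusion, was at -0.81 in VPA (adjusted p = 0.00220) and at 0.57 with Rapamycin compared with VPA (adjusted p = 0.00659 by edgeR).

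The transcription factors that specify inhibitory spinal neurons fell with the inhibitory transmitter genes. Of 15 tested, 12 fell and 1 rose in VPA (median log2 fold change -1.51), 6 of 16 rose with Rapamycin compared with VPA (median 0.41), and 11 of 16 were lower than vehicle with Rapamycin. Of all genes tested, 15.7% fell and 16.4% rose in VPA. With Rapamycin, 3.01% were higher than in VPA and 9.22% lower than in vehicle. TAL1, which with GATA2 marks the GABAergic V2b interneurons, had 540, 509 and 449 counts in vehicle, 76, 51 and 90 in VPA and 92, 150 and 148 with Rapamycin. Its libraries were apart in all 3 conditions, with -2.87 for VPA against vehicle (SE 0.19, adjusted p = 7.411e-06) and 0.88 for VPA+Rapamycin against VPA (adjusted p = 0.0349 by edgeR). GATA2 itself was at -2.32 in VPA (adjusted p = 0.000102) and rose by 1.32 with Rapamycin compared with VPA (adjusted p = 0.00155 by edgeR). SOX14 was at -2.85 in VPA (adjusted p = 1.561e-05) and 1.61 with Rapamycin against VPA (adjusted p = 0.000793), LHX5 at -1.55 (adjusted p = 9.833e-05) and 0.58 (adjusted p = 0.00930), and EN1, the V1 interneuron factor, at -2.57 (adjusted p = 0.00115) and 1.49 (adjusted p = 0.00747 by edgeR).

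The factors of excitatory neurons were mixed. Of 10 tested, 5 fell and 2 rose in VPA (median log2 fold change -0.33), and 3 rose and 1 fell with Rapamycin compared with VPA. The shares of all genes tested were 15.7% lower and 16.4% higher in VPA, and 3.01% higher and 3.73% lower with Rapamycin against VPA. EVX1 and EVX2, the factors of V0 excitatory interneurons, were at -2.52 (adjusted p = 0.000319) and -4.04 (adjusted p = 0.00195 by edgeR) in VPA. LHX2, a factor of dorsal dI1 interneurons, went from 1, 4 and 4 counts in vehicle to 27, 24 and 20 in VPA. The dorsal factors named above, which did not pass the filter on low counts, did not follow it. In VPA, LHX9 and BARHL1 had 0 counts in every library, ATOH1 had 0, 2 and 6 and TLX3 had 1, 0 and 0. BARHL2, also below the filter, had 0 counts in every vehicle library and 9, 4 and 5 in VPA. LMX1B, a dorsal factor, had 4, 4 and 137 counts in vehicle and 88, 85 and 120 in VPA, so vehicle replicate 3 stood with the VPA libraries, and it did not pass (adjusted p = 0.447 by edgeR). It fell by 1.15 with Rapamycin compared with VPA (adjusted p = 0.00677 by edgeR), as the only one of the 10 that did.

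Across the 9 libraries, the members that fell with VPA were correlated to differing degrees. As a description over log2 levels that share 3 conditions, Pearson's r was 0.969 between SLC6A5 and SLC17A6, 0.957 between GAD1 and SLC6A5, 0.928 between GAD1 and GAD2 and 0.919 between GAD2 and SLC32A1. The lowest among these 5 were those of SLC32A1 with GAD1 (0.826), SLC6A5 (0.799) and SLC17A6 (0.719). SLC17A7 had r = -0.937 with SLC6A5 and -0.880 with SLC17A6. Among 13395 genes with a mean of at least 50 counts, those most like each member were taken by the same measure. They were EVX1-AS (r = 0.989), AC005481.1 and AC004080.1 for GAD1, PARP6 (r = 0.987), GATA2 (r = 0.986) and ADRA1A for GAD2, CAPS (r = 0.965), NKX1-2 and RPL23AP82 for SLC32A1, and SCRT2 (r = 0.985), ZNF445 and KLC1 for SLC6A5. EVX1-AS is antisense to EVX1, and its mean went from 11.4 CPM in vehicle to 1.24 in VPA and 3.52 with Rapamycin. For SLC6A9 they were RASA3 (r = 0.970), PIP5K1A and NEURL1B, for SLC17A6 MYSM1 (r = 0.997), HIST2H2BE and PNISR, and for SLC17A7 ZBTB8OS (r = 0.991), BEND6 and PQLC3. With 9 libraries in 3 conditions, many genes reach a high r by the condition alone.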

How the data were processed

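Poly-T selected mRNA of 9 whole SCO samples, 3 per condition, was sequenced by the authors. The labels' processing notes name HISAT2 2.0.5 and featureCounts 1.5.0-p3, and the use of strand is not given in the sources used here. The deposited tables, 1 per pair of conditions, hold raw counts per gene and, per the file headers, FPKM values that the authors computed. The FPKM values were read only as a second per-length level, and all tests used the counts. Columns of the authors' own fold changes, p-values and group means, and 18 columns of counts divided by size factors, were not used. A gene was left out of a table for under 2 reads over its 6 libraries. The 402 genes left out of both tables that hold a condition were set to 0 in the libraries of that condition.

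Each pair was fitted in its own table with edgeR 4.0.16 (R 4.3.3): TMM, filterByExpr, quasi-likelihood F test and Benjamini-Hochberg adjustment over all genes tested, with an adjusted p of at most 0.05 called. Standard errors follow from each estimate and its F statistic. The code was tested on simulated data with 200 changed genes per comparison. Of changes of 1 on the log2 scale 66.0% to 76.6% were recovered, and of changes of 2, 90.4% to 94.3%. False calls made up 8.47% to 10.3% of the calls at an adjusted p of at most 0.05, more than that threshold aims at. Levels are TMM-scaled CPM over 9 libraries. The floor of 3 counts covers counting error only. Gene positions are those of the tables (GRCh38; 31559 of 31589 genes have the GENCODE 29 coordinates). Promoter sequences are from RefSeq (GRCh38.p14), and all 8 members matched. Alternatives were DESeq2 1.42.0, RLE and upper-quartile scaling, no filter, a minimum of 10 counts per library, 1 fit to all 9 libraries, the replicate number as a block, a change of at least 1 on the log2 scale, and each library left out in turn.

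Members, the 6 context lists and the 10 marker lists were chosen with earlier results of these data known. Named are all members, the 3 genes of smallest p per list and comparison (with their values in the other comparisons where these bear on the members), the 3 genes most like each member with a mean of at least 50 counts, and overlapping genes above 10% of a member's count. LHX2, ATOH1, LHX9, BARHL1, BARHL2, TLX3, CHAT, SLC5A7, GAP43, SLC38A1 and the mesenchymal genes were added after their values were seen, and so was the scale per pan-neuronal marker. Some genes that this rule names are not reported here.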

Additional observations from a re-analysis of the deposited data

How the results depend on the processing

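In VPA against vehicle, the 6 transmitter calls held under every alternative in which the gene was tested. The count was 4 with at least 10 counts in every library, where SLC17A6 and SLC17A7 were not tested, and 6 to 7 when libraries were left out in turn (7 without vehicle replicate 3, with SLC6A9). No member changed sign past the threshold in any comparison. In VPA+Rapamycin against VPA, the count of 6 became 2 with all 9 libraries in 1 fit and 3 with a minimum change of 1 on the log2 scale, and 2 (without VPA replicate 2) to 5 when libraries were left out. DESeq2 gave SLC17A6 no adjusted p there. In VPA+Rapamycin against vehicle the count of 5 was 4 to 6 over the libraries left out. The cause of these moves was not tested.

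Over all genes, the calls in VPA against vehicle went from 5568 to 1966 with that minimum change and ran from 3390 to 6710 with libraries left out. In VPA+Rapamycin against VPA they went from 1168 to 113 with all 9 libraries in 1 fit and to 188 with the minimum change, and ran from 472 to 1203. In VPA+Rapamycin against vehicle they went from 3307 to 1121 with it and ran from 1295 to 4314.

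For the other lists in VPA against vehicle, factors of excitatory neurons gave 12 calls without a filter and 3 at 10 counts in every library. With the minimum change, GABA and glycine genes gave 1, glutamate genes 2 and vesicle machinery 2. Leaving out libraries gave 4 to 11 glutamate genes and 7 to 13 of vesicle machinery. In VPA+Rapamycin against VPA, all 9 libraries in 1 fit gave 0 GABA and glycine genes, 0 glutamate genes, 2 factors of inhibitory neurons, 1 of excitatory neurons and 0 of vesicle machinery. The minimum change gave 0, 1 and 3 for the first 3 of these and 0 for vesicle machinery. Leaving out libraries gave 1 to 5 GABA and glycine genes, 0 to 3 glutamate genes, 0 to 1 cholinergic and monoaminergic genes, 3 to 6 factors of inhibitory neurons and 1 to 5 of vesicle machinery. In VPA+Rapamycin against vehicle, factors of excitatory neurons gave 10 without a filter and 2 to 7 with libraries left out, and GABA and glycine genes gave 1 at 10 counts in every library. All 9 libraries in 1 fit gave 4 of vesicle machinery. The minimum change gave 1 GABA and glycine gene, 2 glutamate genes, 6 factors of inhibitory neurons and 1 of vesicle machinery, and leaving out libraries 2 to 10 glutamate genes and 0 to 5 of vesicle machinery.

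Whether the replicate numbers pair the libraries by clone is not given, and the deviations of same-numbered libraries from their group means had correlations of -0.068 to 0.160. In the fit with a replicate block, the transmitter calls were 6, 6 and 5 in the 3 comparisons, and the glutamate genes called in VPA+Rapamycin against vehicle went from 5 to 8, the 1 count moved by over 1.5 times, while no call of a transmitter gene changed. Low counts limit SLC17A8 in all conditions and SLC17A6 in VPA.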

Other observations

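Other cell types were looked at through 8 further marker lists, with calls by edgeR. Of all genes tested, 16.4% rose and 15.7% fell in VPA against vehicle, and the neural progenitor list stood near these shares in both directions. In VPA against vehicle, 2 of 14 neural progenitor markers rose and 2 fell, among them HES5, an effector of Notch, at 0.95 on the log2 scale (adjusted p = 0.000114) and NKX6-1, a factor of the ventral progenitors, at -1.19 (adjusted p = 0.00185). Of 8 astrocyte and radial glia markers, 3 rose and 1 fell, with HOPX at 1.501 (adjusted p = 0.00326) and SPARCL1 at -1.95 (adjusted p = 0.000337). In the neural crest list, 1 of 9 rose and 4 fell, with SOX10 at -5.15 (adjusted p = 2.519e-06) and ERBB3 at 1.29 (adjusted p = 0.000219). SOX10 also stands in the oligodendrocyte list, of which 2 of 6 fell. Of 3 tested genes of paraxial mesoderm and muscle, 2 rose. MYOD1, the master factor of muscle, had 1, 0 and 0 counts in vehicle, 26, 17 and 14 in VPA and 9, 17 and 7 with Rapamycin. Of 11 spinal HOX genes, 5 fell, with HOXC8 at -1.79 (adjusted p = 0.000330). Of 2 pluripotency genes, 1 fell (DPPA4 at -0.95, adjusted p = 0.00150), while LIN28A was at -0.01 (adjusted p = 0.986). Of 2 endothelial and blood genes tested, 0 were called by edgeR and 0 by DESeq2, and 1 had an unadjusted p under 0.05.

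With Rapamycin compared with VPA, NKX6-1 rose by 1.11 (adjusted p = 8.297e-05) and HES5 was at -0.61 (adjusted p = 0.000444), SOX10 rose by 2.19 (adjusted p = 0.0345), and 3 of 11 spinal HOX genes rose, with HOXB8 at 0.45 (adjusted p = 0.00633 from edgeR). Of all genes tested, 3.01% rose in that comparison. The mesenchymal genes COL1A2 and LUM were at -1.32 (adjusted p = 1.081e-05) and -1.37 (adjusted p = 0.000282 from edgeR).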
